A study of Caenorhabditis elegans with 6 samples.

Results

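The 6 genes described here encode mitochondrial proteins, and their RNA was measured in nematode cells that the study sorted as touch receptor cells. They include the complex I subunit genes ndub-3 (C18E9.4) and nduc-2 (Y71H2AM.4), cox-6C (F29C4.2) of complex IV and R05D3.6 of the ATP synthase. The others are the carrier gene slc-25A32 (K01C8.7) and dlat-2 (C30H6.7) of pyruvate oxidation. All 6 genes were found by the current symbol or sequence name of their probes. Each has a named probe, among 7477 named genes and 22321 features in all (a feature is a named gene or an unnamed probe). The 6 genes hold 15 of the 22562 probes, since dlat-2 has 10 and each other gene has 1. They were chosen for their log ratios in 128Q relative to 19Q cells, so their values in that comparison are given as a description without a test.

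RNA came from GFP-positive cells of integrated transgenic Caenorhabditis elegans, sorted from embryonic cells cultured overnight. The 128Q and 19Q cells expressed an N-terminal fragment of human huntingtin (HTT) with an expanded or a normal polyglutamine stretch, fused to GFP under the mec-3 promoter, and the GFP-only cells carried GFP under the same promoter. Two-colour arrays compared 128Q with 19Q cells in 3 sets of ratios and 19Q with GFP-only cells in a further 3, each labelled a biological replicate, with Cy5 for the first-named and Cy3 for the second-named cells. Since mec-3 is also active in a few other sensory neurons, GFP alone does not limit the sort to touch receptor cells, and of the touch receptor markers looked up (mec-3, mec-4, mec-7, mec-17 and others) 0 are among the probes with a gene name here. The study's own list of genes deregulated in 128Q relative to 19Q cells names mec-7, mec-12, mec-17, mec-18 and mtd-1, all lower in 128Q cells. These markers thus had probes on the arrays, which carry no gene name here, and the cell type was not checked with them. The pools of 128Q and 19Q cells may therefore differ in their cells.

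The respiratory chain sits in the inner mitochondrial membrane, where complex I takes electrons from NADH, complex IV passes them to oxygen, and the ATP synthase uses the proton gradient that results to make ATP. The pyruvate dehydrogenase complex feeds the citric acid cycle, which supplies the NADH, and carriers of the SLC25 family move metabolites across the inner membrane. Neurons depend heavily on this machinery, and impaired mitochondrial energy supply has long been studied in Huntington's disease.

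All values below are log ratios in deposited units, and the sources used here do not give their log base. Positive values mean more signal from the first-named cells. The spread of the sets is not the same: the SD over probes is 1.00 in replicate 1 of 128Q over 19Q and in all 3 sets of 19Q over GFP, but 0.783 in replicate 2 and 0.810 in replicate 3 of the former. Without 244 unnamed probes of very low values, the SDs of the first comparison were 0.815, 0.786 and 0.809 and those of the second 0.676, 0.786 and 1.00 (replicates 1, 2 and 3 of each), so which sets differ in spread depends on those probes. An SD of 1.00 over all probes is that of values scaled set by set, so a unit need not mean the same on each set. For this reason the rank of each gene within its set is given beside the log ratio. In a pool of sorted cells, a higher log ratio cannot tell apart more cells with an RNA and more RNA per cell. Replicate 3 of 19Q over GFP stood apart from replicates 1 and 2, with r = 0.114 and 0.0118 across probes, which are not independent. Replicates 1 and 2 had r = 0.739 with each other. Without the 244 low probes, r was 0.525 between replicates 1 and 2, and 0.210 and 0.0446 with replicate 3, so part of the gap rests on those probes. The 19Q over GFP mean of each of the 6 genes is therefore also given without replicate 3. The study describes 3 independent experiments, but no source used here says that each had its own culture. The p values thus measure the spread between these sets, pooled over both comparisons.

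ndub-3 and nduc-2 encode small accessory subunits of the membrane arm of complex I, the counterparts of human NDUFB3 and NDUFC2. ndub-3 had log ratios of 1.09, 0.64 and 0.82 in replicates 1 to 3 of 128Q over 19Q. All 3 were well above 0 and close to each other, with a mean of 0.85 ± 0.22 (SD, n = 3), the smallest SD of the 6 genes in this comparison. nduc-2 had 1.16, 0.40 and -0.04, with a mean of 0.51 ± 0.61 (SD, n = 3), and 0.18 without replicate 1. This gene was highest on replicate 1 and not raised on replicate 3, and its SD was larger than its mean. On replicate 3 its log ratio was above that of 43.7% of all features, against 93.6% on replicate 1 and 79.7% on replicate 2. For ndub-3 the same shares were 92.7%, 86.5% and 88.6%.

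In 19Q relative to GFP-only cells, ndub-3 had log ratios of 0.44, 1.35 and -0.47. They lay on both sides of 0, and on replicate 2 the log ratio was above that of 97.7% of all features. nduc-2 followed the same order at lower values, with 0.03, 0.73 and -0.50. Both complex I genes were thus highest on replicate 2 and below 0 on replicate 3.

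cox-6C encodes a small subunit of cytochrome c oxidase, the last complex of the chain. Its log ratios of 128Q over 19Q were 1.56, 0.73 and 0.36, all above 0 but with more than 1 unit between the highest and the lowest, and a mean of 0.88 ± 0.62 (SD, n = 3). Without replicate 1 the mean was 0.55. Against GFP-only cells, the log ratios in 19Q were 0.03, -0.14 and -0.05. These lay closer together than those of any other gene of the 6, with a mean of -0.05 ± 0.09 (SD, n = 3).

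R05D3.6 encodes a homolog of the epsilon subunit of the ATP synthase, a short protein of the central stalk. It had the highest mean of the 6 genes in 128Q over 19Q, with log ratios of 1.99, 1.85 and 1.36 and a mean of 1.73 ± 0.33 (SD, n = 3). All 3 values were high, and only 476 of 22236 features had a higher mean. Its log ratios of 19Q over GFP were 0.24, 0.35 and -1.64. Replicates 1 and 2 were slightly above 0, and replicate 3 was the lowest value of the 6 genes on that set.

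slc-25A32 encodes a carrier of the inner membrane whose human counterpart is known to transport folate and FAD. Its log ratios of 128Q over 19Q were 1.16, 1.97 and 1.64, with a mean of 1.59 ± 0.41 (SD, n = 3). All 3 were above 1, and the mean was exceeded by 570 of 22236 features. It is the single gene of the 6 that was lowest on replicate 1 of this comparison. The values of 19Q over GFP were 0.33, -1.85 and -0.05, and replicate 2, on which both complex I genes were highest, gave its lowest value.

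**Figure D1:**
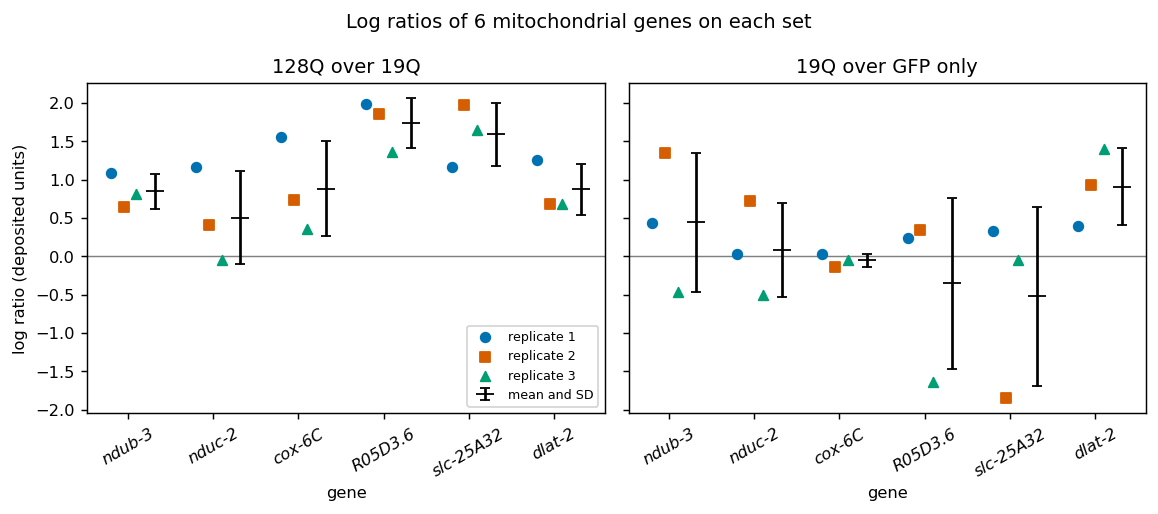
Log ratios (vertical axis, deposited units) of the 6 genes on each set of 128Q over 19Q (left) and of 19Q over GFP only (right), with a symbol for each replicate and the mean and SD (n = 3) beside them. All values on the left lie above 0 except replicate 3 of nduc-2 (-0.04), while those on the right lie on both sides of 0 for every gene but dlat-2.

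dlat-2 encodes a homolog of dihydrolipoamide acetyltransferase, the core enzyme of the pyruvate dehydrogenase complex. Averaged over its 10 probes, it had log ratios of 1.26, 0.68 and 0.68 in 128Q over 19Q, with a mean of 0.87 ± 0.33 (SD, n = 3). In 19Q over GFP its log ratios were 0.39, 0.93 and 1.40, with a mean of 0.91 ± 0.50 (SD, n = 3). It was the single gene of the 6 to lie above 0 on all 6 sets, as other mitochondrial genes named below also did. For scale, 30.9% of features were above 0 on all 3 sets of 128Q over 19Q, and 27.3% on those of 19Q over GFP.

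The probes of dlat-2 give the spread within a set, which the single probes of the other 5 genes cannot show. On replicate 1 of 128Q over 19Q the 10 probes ran from 1.11 to 1.51 around 1.26. On replicate 2 they ran from 0.60 to 0.80 around 0.68, and on replicate 3 from 0.52 to 0.85 around 0.68. The ranges of replicates 2 and 3 overlapped, and replicate 1 lay wholly above both. The SD between probes averaged 0.0967 over these 3 sets, against an SD of 0.335 between the sets. In 19Q over GFP the 10 probes ran from 0.28 to 0.61 on replicate 1 and from 0.77 to 1.05 on replicate 2, without overlap. On replicate 3 they ran from 0.70 to 2.19, a range that took in all of replicate 2. The SD between probes was 0.500 there, and 0.105 and 0.0750 on replicates 1 and 2. Another 22 genes also have 10 named probes, and their median SD between probes was 0.415 on replicate 3, against 0.155 and 0.141 on replicates 1 and 2. Replicate 3 of 19Q over GFP thus had the widest spread between probes of a gene, for dlat-2 and for the median of the other 22 genes. The sources used here do not give whether the 10 probes share a sequence, and they are no replicates of a condition.

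**Figure D2:**
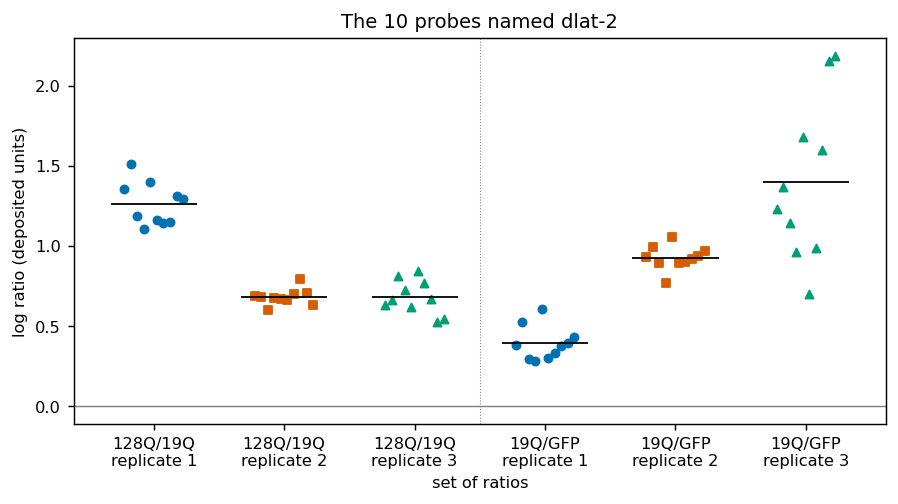
Log ratios (vertical axis, deposited units) of the 10 probes named dlat-2 on each of the 6 sets of ratios, with a line at their mean. The probes lie above 0 on every set, and they spread most on replicate 3 of 19Q over GFP (0.70 to 2.19).

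Across the 6 genes, 6, 6 and 5 were above 0 on replicates 1 to 3 of 128Q over 19Q, where 55.8%, 51.0% and 52.5% of all features were. All but nduc-2, or 5 of 6, were above 0 on all 3 sets, as were 30.9% of the 22033 features tested (25.7% were below 0 on all 3). The 6 genes were chosen on these values, so nothing can be read from that difference. Their means ran from 0.51 (nduc-2) to 1.73 (R05D3.6) with a median of 0.88, and the median over all features tested was 0.05. R05D3.6 and slc-25A32 formed the top of the range, and ndub-3, cox-6C and dlat-2 lay within 0.04 of each other, less than their SD. By rank, R05D3.6 stood above 97.9%, 97.7% and 95.7% of the features on replicates 1 to 3, and slc-25A32 above 93.6%, 98.0% and 97.2%. The lowest of their 3 ranks was above the lowest rank of each of the other 4 genes, while cox-6C ranged from 72.8% to 96.5%.

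**Figure D3:**
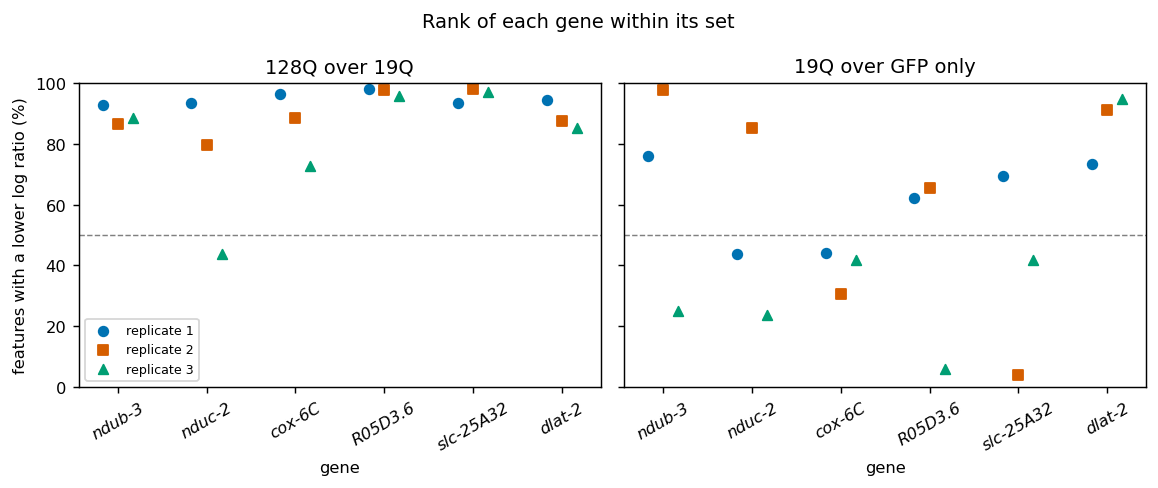
Share of all features with a lower log ratio than each gene (vertical axis, percent) on each set of 128Q over 19Q (left) and 19Q over GFP only (right), with a symbol for each replicate and a dashed line at the middle rank. On the left the lowest points are nduc-2 (43.7%) and cox-6C (72.8%), both on replicate 3, and on the right they run from 3.81% (slc-25A32, replicate 2) to 97.7% (ndub-3, replicate 2).

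Setting 19Q against GFP-only cells asks whether the normal polyglutamine fragment itself goes with a change, and 19Q RNA enters both comparisons. The 6 genes were picked for their 128Q over 19Q values, but with earlier results of both comparisons known. None of the 6 genes passed the test in limma at an adjusted p under 0.01. In that fit 0 of 21897 features passed (0.0% higher and 0.0% lower), and the lowest adjusted p was 0.098. The study, with another test, did list deregulated genes in this comparison, so the count of 0 holds for the limma fit alone. At an unadjusted p under 0.05, dlat-2 was the single one of the 6, and 14.0% of all features were higher and 8.03% lower at that level. dlat-2 had a mean of 0.91 with a 95% interval from 0.32 to 1.49 (adjusted p = 0.145 from limma) and was above 0 on 3 of 3 sets, as were 27.3% of all features. Without replicate 3, where its probes spread most, its mean was 0.66.

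For the other 5 genes the 95% interval held 0. ndub-3 had a mean of 0.44 with an interval from -0.34 to 1.22 (adjusted p = 0.453 from limma), and 0.90 without replicate 3. nduc-2 had 0.08 with an interval from -0.65 to 0.82 (adjusted p = 0.892 from limma), and 0.38 without replicate 3. Replicate 3 gave both complex I genes their lowest value. Without replicate 2 instead, their means were -0.014 and -0.24, so either direction rests on 1 set.

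cox-6C had a mean of -0.05 with an interval from -0.65 to 0.54 (adjusted p = 0.914 from limma), and -0.06 without replicate 3. R05D3.6 had -0.35 with an interval from -1.28 to 0.58 (adjusted p = 0.616 from limma), and 0.29 without replicate 3. slc-25A32 had -0.52 with an interval from -1.50 to 0.45 (adjusted p = 0.473 from limma), -0.76 without replicate 3 and 0.14 without replicate 2. For both genes the negative mean turned positive without 1 set, replicate 3 for R05D3.6 and replicate 2 for slc-25A32. Over the 6 genes, 3 means were above 0, as were 57.7% of all features tested, and 1 mean, that of dlat-2, was larger than its SD. A p above the threshold does not show equal levels. The interval of cox-6C reaches from -0.65 to 0.54, though its SD in this comparison was the smallest. The fit pools the spread of both comparisons, and the SD of cox-6C in 128Q over 19Q was 0.62.

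Through 19Q, the sum of both means describes 128Q relative to GFP-only cells, which were never hybridised together. It was 1.78 for dlat-2 with a standard error of 0.35, with both of its means near 0.9. It was 1.38 ± 0.56 (SE) for R05D3.6, 1.29 ± 0.47 for ndub-3 and 1.07 ± 0.58 for slc-25A32. cox-6C had 0.83 ± 0.36 and nduc-2 0.59 ± 0.44. The order of the genes in these sums rests on single sets. Without replicate 3 of 19Q over GFP, R05D3.6 came first with 2.03, ndub-3 had 1.74 and dlat-2 1.53, while nduc-2 (0.88), slc-25A32 (0.83) and cox-6C (0.82) lay close together. When each of the 6 sets was left out, slc-25A32 ran from 0.64 (without replicate 1 of 19Q over GFP) to 1.73 (without its replicate 2). nduc-2 fell to 0.26 without replicate 1 of 128Q over 19Q and to 0.27 without replicate 2 of 19Q over GFP, cox-6C to 0.49 without replicate 1 of 128Q over 19Q, and ndub-3 to 0.83 without replicate 2 of 19Q over GFP. These sums contain the values on which the genes were chosen and were not tested, nor were the differences between them. The sums also add sets of unlike spread, whose units need not be the same. The SE of a sum treats both means as independent, although 19Q RNA enters both, and uses the spread pooled over both comparisons.

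The genes were also compared with each other over the 6 sets, by the root mean square of the difference between their log ratios. ndub-3 and nduc-2, both of complex I, were the closest pair, at 0.48, and nduc-2 and cox-6C were almost as close, at 0.48. The most distant pair was ndub-3 and slc-25A32, at 1.47. On the 3 sets of 19Q over GFP alone, ndub-3 and nduc-2 were again the closest pair, at 0.43, and ndub-3 and slc-25A32 the most distant, at 1.86. On the 3 sets of 128Q over 19Q this was not so. There ndub-3 and nduc-2 lay at 0.52, and the closest pairs were ndub-3 with dlat-2, at 0.13, and cox-6C with dlat-2, at 0.26. The sets share 19Q RNA, and no test was made of these distances.

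Among 7305 other named genes with a value on all 6 sets, the gene nearest to nduc-2 was ndua-5, which encodes a further subunit of complex I, at 0.21, where the median gene lay at 0.81. Its log ratios were 0.85, 0.51 and -0.13 in 128Q over 19Q and 0.42, 0.70 and -0.47 in 19Q over GFP. It shared with nduc-2 the fall below 0 on replicate 3 of each comparison. T01C3.2 and gplb-1 were nearest to ndub-3, at 0.20 and 0.22, and Y37E11B.6 came second for nduc-2, at 0.23. F14D2.11 and F25H5.2 were nearest to cox-6C, at 0.24 and 0.26, and F13G3.10 and R148.7 to dlat-2, at 0.23 for both. VC27A7L.1 and F22E12.1 lay at 0.36 from R05D3.6, and C16C10.13 and ZC395.11 at 0.46 and 0.50 from slc-25A32, where the median gene lay at 1.48 for both.

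A further 18 mitochondrial genes were found by the form of their symbol and not by how they moved. They comprise 5 subunits of complex I, cox-18 and cox-19 of complex IV assembly, 6 carriers, 3 genes of the mitochondrial ribosome and 2 of protein import, and 0 named genes were found for complex II, complex III, the mitochondrial stress response or further parts of the ATP synthase and the citric acid cycle. In 128Q over 19Q 0 of the 18 passed at an adjusted p under 0.01 in limma, where 1.63% of all features were higher and 1.17% lower. At an unadjusted p under 0.05, 3 were higher and 1 lower, against 11.9% and 13.1% of all features. Their means were above 0 for 15 of 18 genes, against 54.4% of features, with a median of 0.50 against 0.05 over all features. Of the 18, 9 were above 0 on all 3 sets and 1 below, against 30.9% and 25.7% of all features. The study had listed 5 of the 18 in its own sets on these samples, ndua-5, ndua-12, ndus-8, slc-25A18.2 and timm-17B.2, so for these the direction is not independent.

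slc-25A51, whose human counterpart carries NAD into mitochondria, was the highest of the 18, with 1.45, 0.62 and 0.82 and a mean of 0.96 ± 0.43 (SD, n = 3, adjusted p = 0.0472 from limma). It missed the threshold of 0.01, and at an adjusted p under 0.05 it was the single gene of the 18 to pass, where 4.92% of all features were higher and 5.58% lower. slc-25A21, a carrier of oxodicarboxylates in human, was the lowest, with -0.90, -0.65 and -0.94 and a mean of -0.83 ± 0.16 (SD, n = 3, adjusted p = 0.112 from limma). Its 3 values lay close together on the other side of 0 from those of slc-25A32. slc-25A18.2, a homolog of human glutamate carriers, had 0.56, 0.39 and 0.45 (adjusted p = 0.150 from limma). slc-25A18.1, slc-25A26 and slc-25A42 had means between 0.37 and 0.61.

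Of the further complex I genes, ndua-12 was above 0 on all 3 sets of 128Q over 19Q, with 1.12, 0.52 and 0.72, and on replicate 3 of 19Q over GFP it had -1.81. ndua-1 had 1.67, 0.15 and 0.32, and ndus-8 had 1.37, -0.29 and 0.67. Both were highest on replicate 1, as were all of the 6 genes but slc-25A32. ndua-2 had 0.20, 0.46 and -0.90, with a mean of -0.08, the single complex I gene with a mean below 0. cox-18 and cox-19, which help to assemble cytochrome c oxidase, had means of 0.54 ± 0.68 and 0.39 ± 0.31 (SD, n = 3), below the 0.88 of cox-6C by less than the SD of cox-6C. Of the mitochondrial ribosome, mrps-18.C had 0.77 ± 0.48, mrpl-58 0.73 ± 0.47 and mrps-27 -0.11 ± 0.15 (SD, n = 3). The import genes tomm-70 and timm-17B.2 had 0.64 ± 0.76 and 0.23 ± 0.28 (SD, n = 3).

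In 19Q over GFP 0 of the 18 genes passed at an adjusted p under 0.01 in limma, as did 0.0% of all features. At an unadjusted p under 0.05, 5 were higher and 0 lower, against 14.0% and 8.03% of all features. The highest was cox-19, with 0.88, 2.13 and 1.19 and a mean of 1.40 ± 0.65 (SD, n = 3, adjusted p = 0.127 from limma). ndus-8, a subunit of complex I that binds iron-sulfur clusters, had 0.45, 0.61 and 2.26, and ndua-1 had a mean of 0.83 ± 0.42 (SD, n = 3). These 3 genes were above 0 on all 3 sets, as dlat-2 was. Of the 18 genes, 8 were above 0 on all 3 sets and 0 below, against 27.3% and 13.3% of all features. mrpl-58 was the lowest, with 0.11, 0.82 and -2.32, so that its negative mean came from replicate 3.

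**Figure D4:**
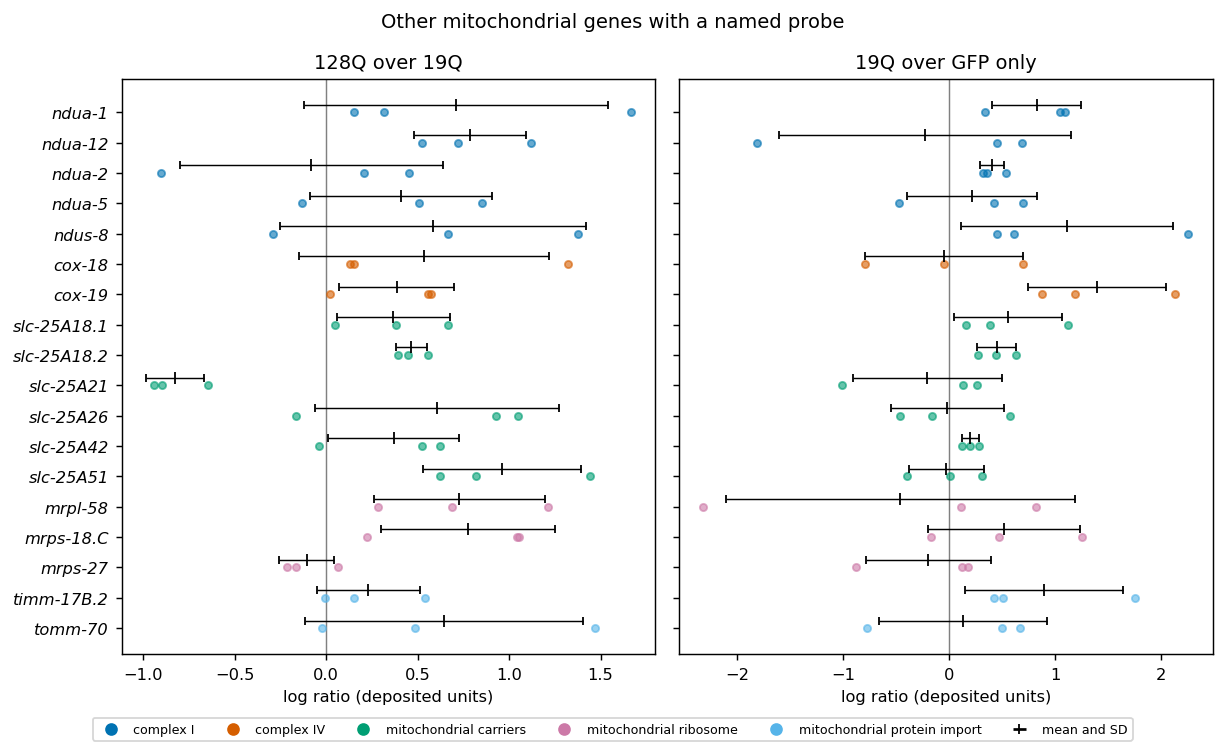
Log ratios (horizontal axis, deposited units) of the 18 other mitochondrial genes with a named probe on each set of 128Q over 19Q (left) and 19Q over GFP only (right), coloured by group, with the mean and SD (n = 3) above the points of each gene. On the left 15 of 18 means lie above 0 and slc-25A21 is the lowest (-0.83), and on the right cox-19 is the highest (1.40) and mrpl-58 the lowest (-0.46).

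The sets of mitochondrial, oxidative phosphorylation and glycolysis genes that the study chose on these samples hold 13 genes with a named probe besides the 6, of which 5 are among the 18 above. All 13 had a mean above 0 in 128Q over 19Q, a direction that the choice fixes, with a median of 0.54. R07B7.10 stood far above the others on this list, with 1.00, 2.90 and 2.12, higher than any of the 6 genes in the mean (2.01 ± 0.95, SD, n = 3). In 19Q over GFP it had -1.16, -1.70 and -1.04, below 0 on all 3 sets, as were 13.3% of all features (adjusted p = 0.145 from limma). R05D3.6 and slc-25A32 also combined a high mean in the first comparison with a negative mean in the second, but with log ratios on both sides of 0. F16B4.6 had means of 0.60 ± 0.46 and 0.75 ± 0.31 (SD, n = 3) in the first and second comparison, and ndab-1, the acyl carrier protein of complex I, 0.67 ± 0.55 and 0.89 ± 0.74. Like dlat-2, both were above 0 on all 6 sets, as were ndua-1, cox-19, slc-25A18.1 and slc-25A18.2 of the 18 genes above. The share of all features above 0 on all 6 sets was not counted. R07E4.3 had 1.38, 1.21 and 0.37 in 128Q over 19Q and -2.65 on replicate 3 of 19Q over GFP. The means of the remaining genes of the study's sets, B0272.3, F54C8.1, K02F3.2 and R07E3.4, were between 0.27 and 0.54 in 128Q over 19Q, and those in 19Q over GFP were between -0.37 and 0.38.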

How the data were processed

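The values are scores that the authors deposited, log ratios of Cy5 over Cy3 with no stated log base, centred to a mean near 0. RNA had been amplified in a linear round, labelled, hybridised to two-colour Agilent arrays with dye swap and read with GenePix. The sources used here do not give the background correction, the normalization or whether dye swaps were merged. Arrays number 3 per comparison, which limits the precision. Gene names came from the annotation of the platform for 7718 probes, of which 7691 matched the RefSeq gene table, through which symbols were updated, and 14844 probes stayed unnamed. Probes of a named gene were averaged.

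One fit of the 6 sets was made in limma 3.58.1 (R 4.3.3), with a coefficient per comparison tested against 0, a value needed on all 3 sets, and Benjamini-Hochberg adjustment over all features at 0.01. The fit was checked on simulated data. Alternatives were separate fits, robust moderation (statmod 1.5.0), centring, centring with scaling, single probes, at least 2 of 3 values, a block for the replicate number, a threshold of 0.05 and each set left out in turn. Leaving out 244 unnamed probes below -3 on 3 sets was added after seeing the data.

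The members and lists were chosen with earlier results of these data known. Named genes are the 6 members, every gene of the respiratory chain, ATP synthase, carrier and pyruvate dehydrogenase lists, the 2 highest and 2 lowest means of the other lists, the genes of the study's sets, and the 2 genes nearest to each member. Lists of touch receptor, other neuron, muscle, epidermis, intestine and germ line markers had 0 named genes.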

Additional observations from a re-analysis of the deposited data

How the results depend on the processing

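In 128Q over 19Q, on which the genes were chosen, leaving out each set moved nduc-2 from 0.18 (without replicate 1) to 0.78 and cox-6C down to 0.55 (without replicate 1), and the other 4 means by less than 1.5 times. Their sign was that of the choice. In 19Q over GFP none of the 6 passed the test under any setting, and neither did any other feature (0 called under each setting). Leaving out each set turned the sign of 4 genes, with ranges from -0.014 to 0.90 for ndub-3, -0.24 to 0.38 for nduc-2, -0.70 to 0.29 for R05D3.6 and -0.95 to 0.14 for slc-25A32, and centring turned nduc-2 to -0.020. The cause was not tested. The sign of cox-6C and dlat-2 was kept.

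Over all features of 128Q over 19Q, 616 were called at an adjusted p under 0.01 and 2313 under 0.05, and leaving out each set gave 0 to 1472. The count was 0 without any 1 set of 128Q over 19Q, and 195, 347 and 1472 without replicates 1, 2 and 3 of 19Q over GFP, through the spread that the joint fit pools. Of the 18 other mitochondrial genes, 0 were called, and 1 (slc-25A51) under 0.05. The sources used here do not say that replicate numbers pair the sets. Deviations of same-numbered sets correlated with r = 0.430, -0.130 and 0.335, and with -0.0383, -0.000411 and 0.00507 without the low probes. With the replicate number as a block, 204 features were called in 128Q over 19Q, with 0 calls in 19Q over GFP. A test rebuilt after VarMixt, the study's tool, was not run on the data, since it made many false calls on simulated data. That simulation gave each feature its own observed SD, and the rebuilt test allowed only a small number of classes of spread. It therefore does not show how the study's tool itself performs. With its tool the study lists more genes in 128Q over 19Q than were called here, and also some in 19Q over GFP. Signal over background is unknown.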
